A study of Mus musculus with 48 samples.

Results

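The comparison described here sets 3 sham-operated C3H_MNX_sham libraries against 3 sham-operated C3H_wt_sham libraries, 6 of the 48 libraries of a mouse cardiomyocyte RNA sequencing series. Members were chosen by title alone, and 12977 genes were tested. MNX mice are mitochondrial-nuclear exchange mice, whose nuclear genome comes from one inbred strain and whose mitochondria come from another. The strains are C57BL/6J, written C57, and C3H/HeN, written C3H. Cells in all 6 libraries were isolated cardiomyocytes from hearts without the right ventricle and the atria, 3 days after sham surgery. The wild-type libraries carry the genotype tag WT C3H. The exchange libraries carry the tag MNX C57n:C3Hmt, which reads as a C57 nucleus with C3H mitochondria, whereas their titles begin with C3H. The title prefix was read here as the nucleus, for the reason given next, so the groups are taken to share the C3H nucleus and to differ in the mitochondria, C57 in the exchange and C3H in the wild type. No age, sex or litter is given in the labels used here.

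The nuclear profile was checked first on 303 genes that differed by more than 2 on the log2 scale between the wild-type strains in other libraries of the series. Each C3H_MNX_sham library lay nearer to the C3H_wt_sham mean than to the C57_wt_sham mean for 94.7% to 96.7% of these genes. The C3H_wt_sham libraries, each compared with the remaining ones, did so for 89.4% to 95.4%, and the C57-titled sham libraries for 5.28% to 7.26%. The expression profile of the exchange libraries was therefore that of a C3H nucleus, against the genotype tag. The title itself does not say whether its prefix names the nucleus or the mitochondria, so reading it as the nucleus rests on this profile. The mitochondrial genotype was not read from these files.

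Most proteins of a mitochondrion are encoded in the nucleus, while its own small genome encodes core subunits of the respiratory chain, ribosomal RNAs and transfer RNAs. The respiratory complexes and the mitochondrial ribosome are built from both genomes, and a heart muscle cell is packed with mitochondria that supply the beat with ATP. An exchange mouse keeps the nuclear genome while the mitochondrial one changes, which makes it a test of how far the nuclear program responds to the mitochondrial genotype.

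The 6 libraries held 16.24 to 19.98 M counts, and the 6 most abundant features took 41.3% to 50.1% of them. The markers of the labelled cell type were abundant: the 15 cardiomyocyte markers summed to 81000 to 88400 CPM in the exchange and to 76400 to 93000 CPM in the wild type, where CPM is a count scaled to the size of its library. A further 24 libraries of the series have no surgery word in the title and a sham treatment tag. They are called set B here and include 6 C3Hn-C57mt exchange and 6 C3H wild-type libraries. The same pair of titles also exists after ACF, the surgery of a volume overload study, with 3 libraries each. Neither of these pairs shares a library with the sham pair. Separate animals are not stated for the libraries, so a p-value here reflects the spread among libraries, which may be technical.

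Only 3 of 12977 genes (0.0231%) passed the threshold, which was an adjusted p below 0.05 in edgeR's quasi-likelihood test. Zfp709 and Zdhhc2 were higher in the exchange (0.0154% of genes were called higher) and Bpifb4 was lower (0.00771%). A further look at the unadjusted p below 0.05 gave 381 genes (2.94%), of which 169 (1.3%) were higher and 212 (1.63%) lower. The median log2 fold change over all genes was -0.005, and 48.7% of genes lay above 0. In simulated counts of this design the same fit recovered 14.9% of genes changed 1.5-fold, 70.1% of those changed 2-fold and 100% of those changed 4-fold, over 12814 genes. The simulation changed 200 genes, all with a mean of at least 2 CPM, and gave 131 calls, 8 of them false. With only 3 calls in the data a low adjusted p is harder to reach, so these shares do not carry over to the data.

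Zfp709 encodes a zinc finger protein, a family whose members mostly bind DNA and repress transcription. Its level was 8.62, 8.08 and 8.21 CPM in the exchange libraries and 2.31, 2.42 and 2.67 CPM in the wild type. The groups did not overlap, and the libraries within each group lay close together. The log2 fold change was 1.73 (SE 0.169, n = 3 per group, edgeR adjusted p = 0.00162). Zinc finger genes can have closely similar relatives, and how reads shared with them were counted was not tested, so the level of Zfp709 is uncertain.

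Zdhhc2 encodes a palmitoyltransferase, an enzyme that attaches fatty acid chains to membrane proteins. It stood at 8.00, 6.23 and 7.30 CPM in the exchange libraries and at 3.07, 2.10 and 2.35 CPM in the wild type, again without overlap. The log2 fold change was 1.49 (SE 0.21, edgeR adjusted p = 0.0324). This call was lost when any 1 of 5 libraries was left out, with an edgeR adjusted p of 0.203 without 6649, 0.0792 without 6652, 0.162 without 6661, 0.204 without 483 and 0.314 without 485. Without 482 it was 0.0431. The call was also lost with the 6 libraries fitted alone (edgeR adjusted p = 0.053), with the 24 libraries of the sham and ACF titles (1) and with those without ACF library 489 (0.189). It was kept in DESeq2 (adjusted p = 1.64e-05). In edgeR it was kept with the size factors of DESeq2 (adjusted p = 0.0284), no filter on low counts (0.0107) and library sizes without abundant features (0.0298). The mean of the sham and ACF differences without library 489, a fit added after the data were seen, also called it (edgeR adjusted p = 0.000733).

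Bpifb4 encodes a secreted protein of the family that binds lipids and bacterial products. It fell outside the rule for named genes because of its low mean level and was chosen after its values were seen. The wild-type libraries held 128, 80 and 61 counts, and the exchange libraries 1, 0 and 1. The wild type to exchange ratio was 134 (95% exact interval 36.9 to 1120, counting error only), from 269 counts against 2. The fitted log2 fold change, -6.80 (SE 0.566, edgeR adjusted p = 0.00459), depends on the prior count used for values near 0. Without library 6649 the edgeR adjusted p was 0.0756.

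The sequences around the start sites of these genes are given to show what lies next to the genes that differed. They are RefSeq promoters of build GRCm38.p6, a C57BL/6J reference that says nothing of the C3H sequence. Each runs 5′ to 3′ along the gene over 270 bases, 250 before the start and 20 after it. Zfp709 lies at chr8:71881818-71882087, plus strand, and the capitals mark its first 20 transcribed bases. Bpifb4 lies at chr2:153940612-153940881, plus strand, and the capitals mark the letters GGAT, on the printed strand only. A promoter of Zdhhc2 was not used here.
Zfp709: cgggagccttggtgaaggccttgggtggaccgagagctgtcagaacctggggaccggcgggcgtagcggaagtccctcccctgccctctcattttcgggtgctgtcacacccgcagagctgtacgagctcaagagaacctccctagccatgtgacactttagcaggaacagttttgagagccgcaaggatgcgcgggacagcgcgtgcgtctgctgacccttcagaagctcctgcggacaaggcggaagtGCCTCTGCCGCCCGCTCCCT
Bpifb4: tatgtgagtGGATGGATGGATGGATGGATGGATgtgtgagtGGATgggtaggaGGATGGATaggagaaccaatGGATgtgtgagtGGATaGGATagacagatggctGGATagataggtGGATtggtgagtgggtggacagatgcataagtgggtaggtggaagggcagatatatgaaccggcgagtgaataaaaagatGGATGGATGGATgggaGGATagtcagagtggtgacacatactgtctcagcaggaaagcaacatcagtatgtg
The letters GGAT stood 18 times in the Bpifb4 window, in runs that repeat 4 bases. The median over 32851 windows of this length was 1, and 1 window (0.00304%), that of Bpifb4 itself, held as many. These letters were chosen after the sequence was seen, and their count is a description of the reference.

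**Figure D1:**
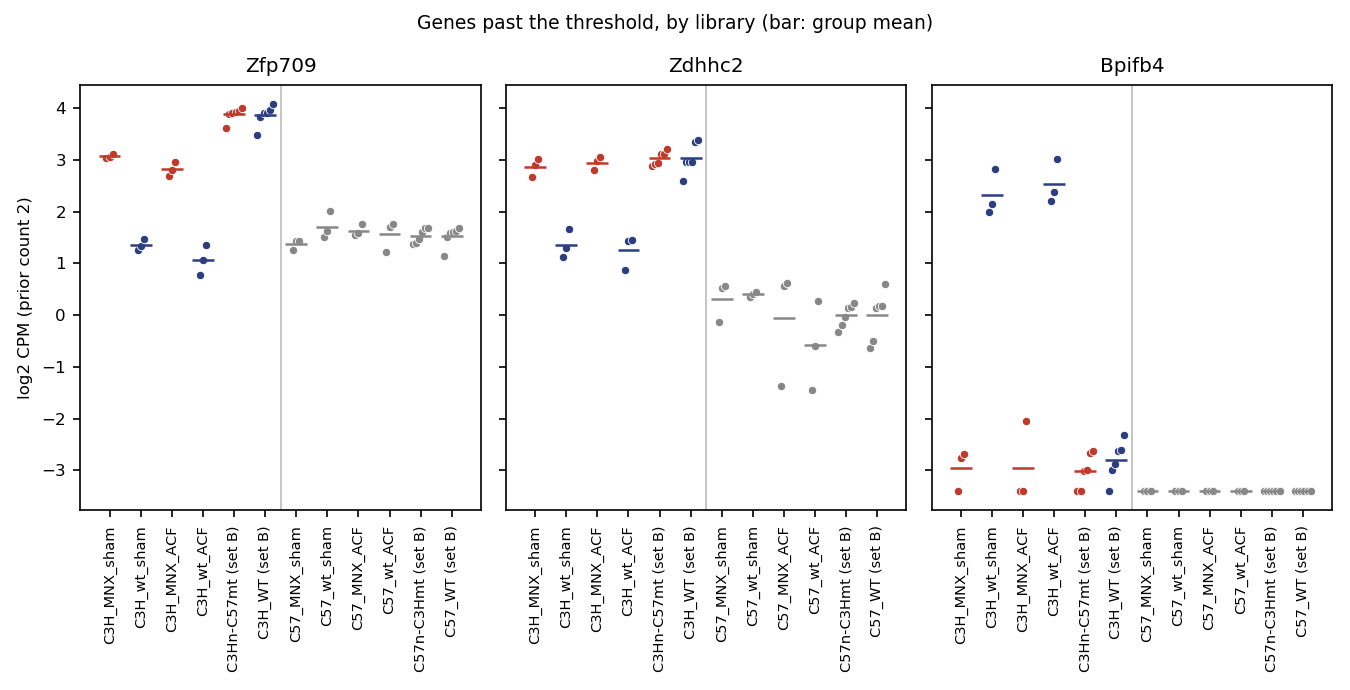
Level of Zfp709, Zdhhc2 and Bpifb4 in every library of the series, as log2 CPM with a prior count of 2; each point is 1 library and each bar a group mean. Groups left of the vertical line carry the C3H nuclear profile (red for exchange, blue for wild type) and those right of it the C57 profile (grey); the C3H_wt_sham and C3H_wt_ACF groups stand apart from the other C3H groups in each of the 3 genes.

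The ACF pair, which shares no library with the sham pair, gave 2 calls among 13440 genes (0.0149%), Zfp709 and Bpifb4. The estimate for Zfp709 was 1.77 there (SE 0.192, edgeR adjusted p = 0.000192), from 6.88, 7.69 and 6.38 CPM in the exchange and 2.45, 2.00 and 1.62 CPM in the wild type. Bpifb4 had 288 counts in the 3 wild-type ACF libraries and 2 in the 3 exchange libraries, a ratio of 144 (95% exact interval 39.5 to 1190). Zdhhc2 did not pass there, at 1.70 (SE 0.361, edgeR adjusted p = 0.248). The difference between the sham and the ACF pair was called for 0 of 13440 genes in edgeR, with 398 at an unadjusted p below 0.05, and for 1 gene in DESeq2, the airway gene Scgb1a1.

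Set B gave 1 call among 13395 genes (0.00747%), the kinase gene Prkcq, which is not among the sham calls. Between C3Hn-C57mt and the C3H wild type the estimate for Zfp709 was 0.02 (SE 0.0966) and that for Zdhhc2 -0.02 (SE 0.147), with edgeR adjusted p of 0.966 and 0.971. Zfp709 ran from 12.1 to 15.9 CPM in the set B exchange (median 15.0) and from 11.0 to 16.8 CPM in the set B wild type (median 14.8). For Zdhhc2 the ranges were 7.25 to 9.19 CPM and 5.94 to 10.3 CPM. Bpifb4 was at most 0.0668 CPM in the set B exchange and at most 0.105 CPM in its wild type.

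The difference between the sham pair and the set B pair was tested in a model of 36 libraries that was added after the data were seen. It called 3 of 13869 genes (0.0216%): Zfp709 at 1.71 (SE 0.183, edgeR adjusted p = 1.11e-06), Zdhhc2 at 1.51 (SE 0.268, edgeR adjusted p = 0.0192) and the clone sequence AK030561. Bpifb4 did not pass there (edgeR adjusted p = 0.0761 at a fitted difference of -6.28). Without library 6649, and without 6661, Zfp709 was the 1 gene called.

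Among all 24 libraries with the C3H profile, the wild type and the exchange of the sham and ACF titles were each checked for a gap from the rest. Set B was not checked in this way. In 3 of 12977 genes the 6 wild-type libraries were separated from the 18 others by a gap of more than 0.5 on the log2 scale. These were Zfp709 and Zdhhc2, lower, and Bpifb4, higher. For the 6 exchange libraries of the sham and ACF titles, 0 genes showed such a gap. The C3H_wt_sham libraries held 269 counts of Bpifb4 and the C3H wild type of set B 9, a ratio of 94.2 after scaling to library size (95% exact interval 48.9 to 208). The wild-type strains of set B differed in Zfp709 by 2.38 (SE 0.107, edgeR adjusted p = 2.11e-15), C3H being higher. C3H_wt_sham and C57_wt_sham differed in it by -0.37 (SE 0.178, edgeR adjusted p = 0.327). The strain difference was called for 6.66% of genes in the sham titles. In Zdhhc2 it was 3.12 in set B (SE 0.175) and 1.04 in the sham titles (SE 0.242, edgeR adjusted p = 0.0189). Whether the mitochondrial genotype or another property of the C3H_wt animals goes with these 3 genes cannot be told apart in the sham and ACF titles, since that group holds all the C3H wild types there.

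The genes next to the called ones were read against the 2.94% of all genes with an unadjusted p below 0.05. Among the 20 nearest tested neighbours of Zdhhc2 in RefSeq's order, 0 had an unadjusted p below 0.05, and their log2 fold changes ran from -0.39 to 0.19. Zfp709 had 1 of 20, the transcription factor gene Klf2 (0.78, SE 0.3). Bpifb4 also had 1 of 20, Bpifa1, an airway epithelium gene. These counts are near the share over all genes.

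Airway genes were looked at because of that neighbour, after their values were seen. Bpifa1 had 0, 27 and 201 counts in exchange libraries 6649, 6652 and 6661, and 0 in each wild-type sham library. Scgb1a1, which encodes the main secreted protein of airway club cells, had 0, 13 and 159 counts in the same exchange libraries and 0 in each wild-type one. Both were thus present in 2 of 3 exchange libraries of the sham pair. In wild-type ACF libraries 471 and 470 they occurred together with Bpifb4. Library 471 held 793 counts of Bpifa1, 1691 of Scgb1a1 and 83 of Bpifb4, and 470 held 12, 20 and 77. Library 486 held 0, 0 and 128, so Bpifb4 was present with and without the airway genes. Exchange ACF libraries 6650, 6662 and 6756 held 405, 199 and 819 counts of Bpifa1 and 291, 216 and 524 of Scgb1a1. Their Bpifb4 counts were 0, 0 and 2, so the airway genes were also present where Bpifb4 was near 0.

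The genotype difference of the C57 titles, C57_MNX_sham against C57_wt_sham, gave 0 calls in edgeR (0% of 12977), with 1064 genes (8.2%) at an unadjusted p below 0.05 and 0 calls in DESeq2. The estimate for Zfp709 was -0.34 there (SE 0.184, edgeR adjusted p = 0.644). The difference between the C3H and the C57 pair was 2.07 for Zfp709 (SE 0.249, edgeR adjusted p = 0.0182), the 1 gene called in that contrast (0.00771%). That call was lost when any 1 of the 6 C3H libraries, or any of 4 of the 6 C57 libraries (6659, 6695, 6763 and 464), was left out, and it held without 467 or 491.

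A title code of L and a digit, whose meaning the labels do not give, differs between most of the 6 libraries and is shared by 6652 and 485 alone. In that pair with code 8, Zfp709 stood at 8.08 CPM in the exchange and 2.67 CPM in the wild type, Zdhhc2 at 6.23 and 2.35 CPM, and Bpifb4 at 0 and 61 counts. With the code as a factor in the 24 libraries of the sham and ACF titles, 0 genes were called in edgeR and 438 had an unadjusted p below 0.05. The estimate for Zfp709 was then 1.68 (edgeR adjusted p = 0.287). In the ACF pair all 3 exchange libraries carry code 8, and the wild-type libraries carry codes 2, 1 and 5. Code and group thus cannot be told apart within the ACF pair.

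Under the rule for named genes, 19 further genes with the lowest unadjusted p without overlap between the groups are given as not having passed, against 11.8% of all genes whose groups did not overlap (6.9% higher, 4.92% lower). Atf3, a transcription factor gene of the acute stress response, came nearest. Its level was 26.5, 43.2 and 17.0 CPM in the exchange and 6.42, 7.85 and 7.18 CPM in the wild type. The exchange libraries were spread over a wide range, all above the wild type, and the log2 fold change was 2.00 (SE 0.306, edgeR adjusted p = 0.0621). DESeq2 called it (adjusted p = 1.43e-06), and edgeR did with no filter on low counts (adjusted p = 0.0037) and without library 6661 (0.0111). Without any other 1 of the 6 libraries the edgeR adjusted p ran from 0.134 to 0.621. In the ACF pair Atf3 had 0.26 (SE 0.577) and in set B 0.21 (SE 0.443). The C57 titles gave 0.83 for it (SE 0.298, edgeR adjusted p = 0.595).

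Among the other genes with higher values was Ces1d, a lipase of lipid droplets and lipoproteins, at 85.3, 92.8 and 82.7 CPM in the exchange against 48.6, 58.2 and 63.6 CPM. Its log2 fold change was 0.60 (SE 0.126, edgeR adjusted p = 0.55), with 1.09 in the ACF pair (SE 0.382) and -0.04 in set B (SE 0.121). Cdkn1a, the cell cycle inhibitor p21, had 10.7, 14.9 and 33.9 CPM against 7.03, 8.87 and 8.52 CPM, so library 6661 carried much of its log2 fold change of 1.26 (SE 0.344). Without 6661 that value was 0.64, and in the ACF pair it was -1.39 (SE 0.53). Adam19, a membrane metalloprotease of heart development, had 0.98 (SE 0.258) and Pdlim7, a cytoskeletal adaptor, 0.55 (SE 0.125). The ribosomal RNA precursor Rn45s was at 582, 443 and 447 CPM in the exchange and 277, 226 and 249 CPM in the wild type, which differ by 0.95 on the log2 scale (SE 0.238, edgeR adjusted p = 0.988). Set B libraries held 1670 to 5470 CPM of it, far above either group.

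Among the genes with lower values was Zbtb16, a transcription factor gene induced by glucocorticoids, at 20.9, 15.8 and 14.6 CPM against 37.9, 37.0 and 42.4 CPM. Its log2 fold change was -1.21 (SE 0.356, edgeR adjusted p = 0.988), with -1.09 in the ACF pair (SE 0.566) and 1.09 in set B (SE 0.626). It was called with the 6 libraries fitted alone (edgeR adjusted p = 0.0365).

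The other genes with lower values had smaller differences. Thsd7a, a membrane protein gene of endothelial cells, had a log2 fold change of -1.03 (SE 0.29) and Arhgap32, which encodes a GTPase-activating protein, of -0.98 (SE 0.257). Gpr179, a receptor of the visual pathway, had -0.82 (SE 0.244) and -0.74 in the ACF pair (SE 0.32). Mal, a membrane raft protein, had -0.67 (SE 0.188) and Ankrd45 -0.65 (SE 0.195). Zdhhc4, another palmitoyltransferase, had -0.51 (SE 0.147). Nuak1, an AMPK-related kinase, had -0.46 (SE 0.139) and -1.04 in the ACF pair (SE 0.239, edgeR adjusted p = 0.396). Nfic, a transcription factor, had -0.34 (SE 0.102).

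**Figure D2:**
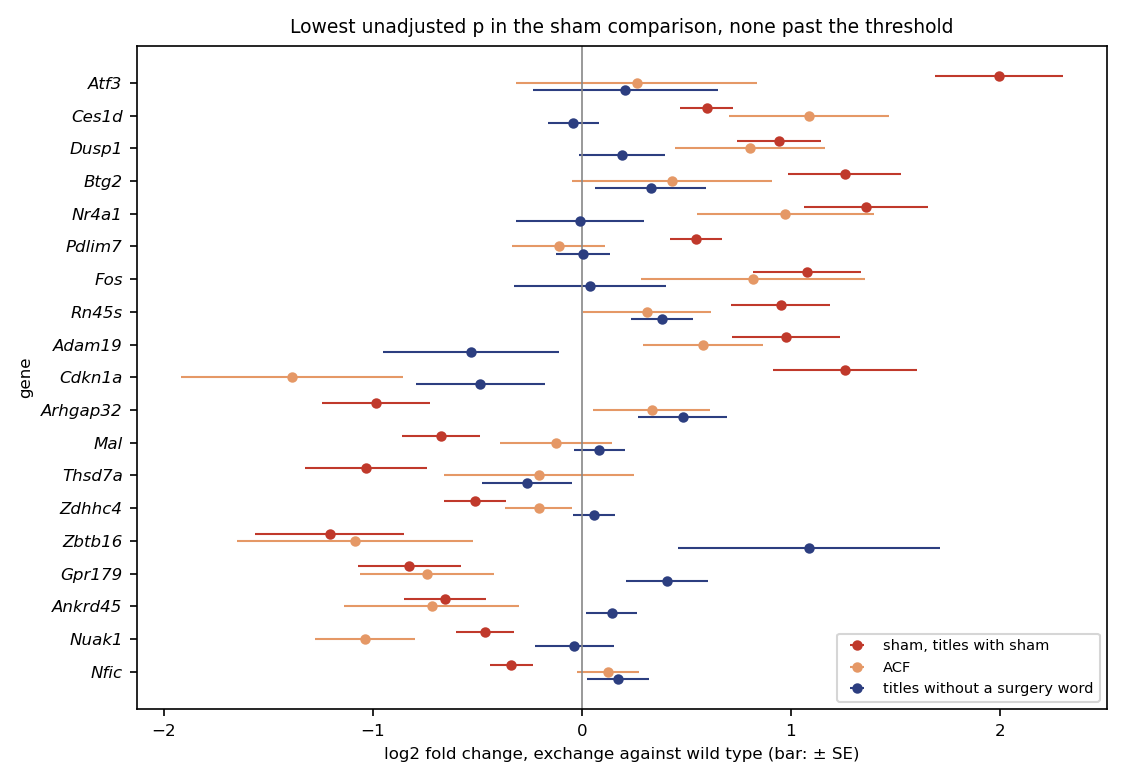
Log2 fold change of exchange against wild type with its SE, for 19 genes with a low unadjusted p that did not pass, in the sham pair (red), the ACF pair (orange) and set B (blue). Atf3 reads 2.00, 0.26 and 0.21 in the 3 pairs, whereas Zbtb16 reads -1.21, -1.09 and 1.09.

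The genes with a low p in the sham pair were followed in the ACF pair and in set B, which share no library with it. The p-values of the ACF pair are not fully independent, because its fit also used the sham libraries. Of the 381 genes with an unadjusted p below 0.05, 187 (49.1%) had the same sign in the ACF pair, beside 42.1% of all 12977 genes. In set B 179 of 370 (48.4%) had the same sign, beside 57.7% of 12855 genes. Among the 381 genes, 38 also had an unadjusted p below 0.05 with the same sign in the ACF pair and 16 with the opposite sign, together 14.2% beside 5.51% of all genes. In set B these counts were 17 and 22, together 10.5% beside 9.38% of all genes. Whether these shares differ was not tested.

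Of the genes with an unadjusted p below 0.05, 139 of 370 (37.6%) were among those called between the wild-type strains in set B, beside 22.5% of all 12855 genes with a value in both. In 57 of the 139 the exchange lay towards the C57 level and in 82 away from it. Whether these shares differ was not tested.

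Immediate early genes are switched on within minutes of a stimulus, many of them through the factors CREB and SRF, and encode the AP-1 and EGR factors and their inhibitors. Of the 26 members tested, 0 passed the threshold, while 12 had an unadjusted p below 0.05, all higher in the exchange (1.3% of all genes). The groups did not overlap for 10 members, all higher (6.9% of all genes), and 21 lay above 0 (48.7% of all genes). The median log2 fold change was 0.49, beside -0.005 over all genes.

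The per-library mean of the list, on the log2 CPM scale, was 3.57, 3.81 and 3.58 in the exchange and 3.10, 3.06 and 3.25 in the wild type. Every exchange library lay above every wild-type one. The means of the antioxidant and the stress response lists also lay higher in each exchange library, by 0.15 on average, and that of the erythrocyte markers lay lower in each. In the ACF pair the antioxidant median was -0.20 (28 of 33 below 0) and the stress response median -0.13 (13 of 20 below 0). These medians were 0.12 and 0.05 in set B and -0.09 and -0.10 in the C57 titles. The erythrocyte median was 0.84 in the ACF pair and 0.60 in set B. The part of blood cells in these values was not tested. For the immediate early genes, 24 of 26 lay above 0 in the ACF pair (50.3% of all genes) and the median was 0.55. There 7 members had an unadjusted p below 0.05 in edgeR, all higher (5.51% of all genes in either direction, 3.75% higher). List means were 3.92 to 4.38 against 3.13 to 3.99. In set B the median was 0.03, with 0 members at an unadjusted p below 0.05 in edgeR (9.38% of all genes, 3.88% higher), and list means of 3.53 to 4.80 against 3.66 to 4.85. In the C57 titles the median was 0.40, with 22 of 26 above 0 (49% of all genes) and 9 at an unadjusted p below 0.05, all higher (5.96% of all genes). Whether handling of the hearts moved with the groups was not tested.

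The transcription factors of the list included Fos, at 16.7, 22.2 and 11.3 CPM in the exchange and 5.44, 8.82 and 9.28 CPM in the wild type (log2 fold change 1.08, SE 0.257, edgeR adjusted p = 0.842). Nr4a1, an orphan nuclear receptor, was at 35.3, 50.2 and 50.0 CPM against 11.4, 23.3 and 17.4 CPM (1.36, SE 0.297, edgeR adjusted p = 0.55). Neither gene's groups overlapped. Jun had a log2 fold change of 0.59 (SE 0.187), Junb 0.55 (SE 0.205) and Egr1 0.53 (SE 0.202), whereas Fosb had -0.11 (SE 0.38) and Myc -0.81 (SE 0.532).

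The feedback inhibitors of the list ranged from values near 0 to values above 1. Dusp1, a phosphatase that switches off MAP kinases, was at 51.4, 71.9 and 44.3 CPM in the exchange and 23.1, 27.0 and 36.2 CPM in the wild type (0.94, SE 0.201, edgeR adjusted p = 0.55). Btg2, an antiproliferative gene that promotes mRNA decay, was at 76.4, 153 and 63.3 CPM against 39.0, 41.7 and 40.0 CPM (1.26, SE 0.27, edgeR adjusted p = 0.55). Library 6652 was the highest in both, and without it Btg2 had 0.78. Zfp36, which destabilises inflammatory mRNAs, had 0.57 (SE 0.197). Ppp1r15a, a phosphatase subunit of the stress response, had 0.12 (SE 0.136). DESeq2 called Atf3, Dusp1, Btg2 and Nr4a1, with adjusted p of 1.43e-06, 0.0217, 0.0163 and 0.0215. Dusp1 was also called in the mean of the sham and ACF differences without ACF library 489, a fit added after the data were seen (0.87, edgeR adjusted p = 0.0267).

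**Figure D3:**
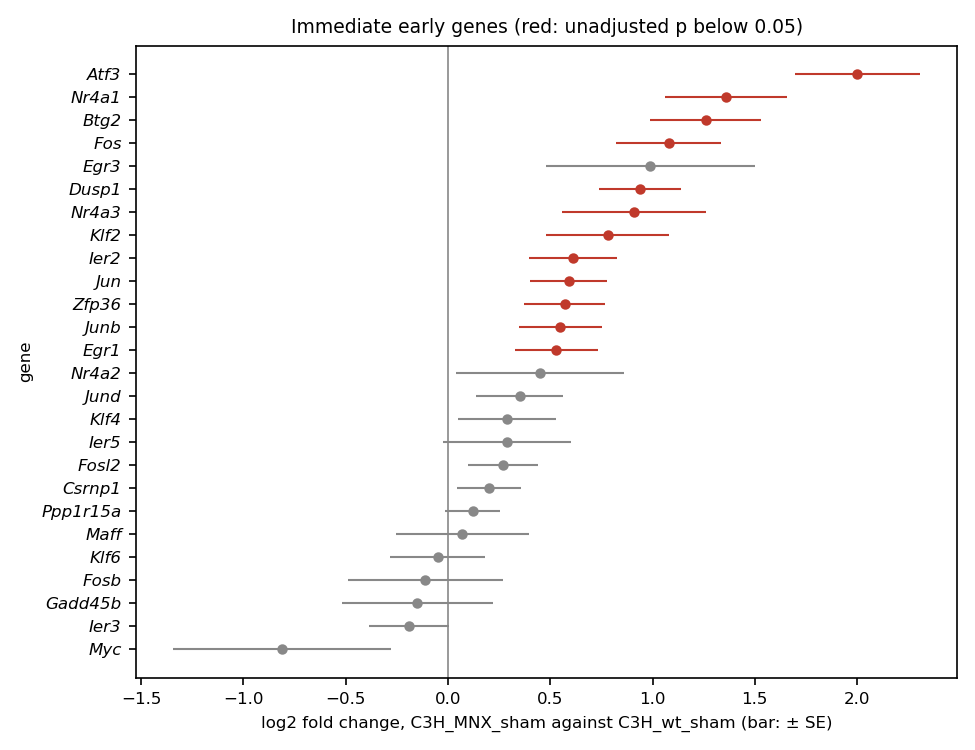
Log2 fold change of C3H_MNX_sham against C3H_wt_sham with its SE for the 26 immediate early genes tested. The 12 genes in red have an unadjusted p below 0.05 and all lie above 0, from Egr1 at 0.53 to Atf3 at 2.00.

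Promoters of 3 of these genes are shown because, of the list's genes among the 19 named above, Atf3, Dusp1 and Btg2 hold a match to the cyclic AMP response element, the site bound by CREB and ATF factors. They are RefSeq sequences of build GRCm38.p6 over the same 270 bases, and the capitals mark each match to TGACGTNA on either strand. Atf3 lies at chr1:191183314-191183583, minus strand, Dusp1 at chr17:26508453-26508722, minus strand and Btg2 at chr1:134079136-134079405, minus strand.
Atf3: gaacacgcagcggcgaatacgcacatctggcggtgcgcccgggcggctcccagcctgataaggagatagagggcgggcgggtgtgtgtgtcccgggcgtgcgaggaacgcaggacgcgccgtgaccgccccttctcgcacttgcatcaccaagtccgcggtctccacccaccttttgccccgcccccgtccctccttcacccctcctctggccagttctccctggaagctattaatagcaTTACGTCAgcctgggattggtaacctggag
Dusp1: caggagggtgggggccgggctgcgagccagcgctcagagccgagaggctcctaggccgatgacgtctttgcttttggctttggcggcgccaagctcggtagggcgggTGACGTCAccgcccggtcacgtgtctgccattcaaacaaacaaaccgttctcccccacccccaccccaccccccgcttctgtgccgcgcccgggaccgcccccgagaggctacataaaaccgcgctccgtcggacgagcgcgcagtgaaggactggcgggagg
Btg2: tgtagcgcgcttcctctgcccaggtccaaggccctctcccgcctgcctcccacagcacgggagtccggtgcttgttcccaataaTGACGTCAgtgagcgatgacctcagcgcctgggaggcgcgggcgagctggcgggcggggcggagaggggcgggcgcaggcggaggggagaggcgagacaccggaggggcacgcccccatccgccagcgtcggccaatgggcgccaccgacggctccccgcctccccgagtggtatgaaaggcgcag
The motif stood in 5 of the 22 immediate early genes with a promoter entry (22.7%), in 488 of 9056 tested genes with one (5.39%), and in 923 of 32851 windows of this length (2.81%). The other 2 genes with a match were Maff and Ppp1r15a, with log2 fold changes of 0.07 (SE 0.325) and 0.12 (SE 0.136). Nr4a1 and Fos, with log2 fold changes of 1.36 and 1.08, held no match to TGACGTNA in this window. The Fos window holds TGACGTAG, which differs in the last base only, and such near matches were not counted. High values thus stood in genes with and without a full match, and genes with a full match also had values near 0.

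The mitochondrially encoded transcripts in the file were Cytb, Cox2 and Atpase6, of complex III, complex IV and the ATP synthase. Cytb was at 71400, 68000 and 63000 CPM in the exchange and 79900, 69800 and 87100 CPM in the wild type, Cox2 at 48900, 42900 and 39500 CPM against 49900, 43300 and 54600 CPM. The groups overlapped for all 3 genes. Log2 fold changes were -0.25 (SE 0.186) for Cytb, -0.19 (SE 0.184) for Cox2 and -0.20 (SE 0.185) for Atpase6, and 0 of 3 had an unadjusted p below 0.05 in edgeR. Mitochondrial genes have nuclear copies, and how reads shared with them were counted was not tested, so their levels are uncertain. In set B Cytb, Cox2 and Atpase6 had -0.24 (SE 0.3), -0.25 (SE 0.291) and -0.29 (SE 0.318). In the same order they had 0.142, 0.114 and -0.035 in the ACF pair and 0.30, 0.38 and 0.34 in the C57 titles.

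The nuclear partners of the respiratory chain lay on the other side of 0. Of 36 complex I subunits, 36 lay above 0 (48.7% of all genes), with a median log2 fold change of 0.25 and a highest of 0.42. Of 40 subunits of complexes II to V, 40 lay above 0 with a median of 0.27. Of 76 mitochondrial ribosomal proteins, 76 lay above 0 with a median of 0.20, and 1, Mrpl17 (0.34, SE 0.129), had an unadjusted p below 0.05. No member of these lists passed, and the groups did not overlap for 1, 1 and 10 of them in turn (6.9% of all genes, higher).

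These uniform signs rested on 2 of the 3 exchange libraries. The mean log2 CPM of the complex I list was 7.26 in 6649, 7.33 in 6661 and 6.85 in 6652, against 6.82, 6.98 and 6.90 in the wild type, so 6652 lay within the wild-type range. For the mitochondrial ribosomal proteins it was 4.59, 4.77 and 4.31 against 4.28, 4.39 and 4.34. In the ACF pair the complex I median was -0.25 with 36 of 36 below 0, and in set B it was 0.09 with 33 of 36 above 0. With the title code as a factor it was -0.32 with 36 of 36 below 0.

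Transcript length moved with the same 2 libraries. Genes were split into 5 equal groups by their longest GENCODE transcript, which 88.2% of tested genes had, and the median log2 fold change ran 0.13, 0.04, 0.00, -0.05 and -0.11 from the shortest to the longest group. In the shortest group, libraries 6649 and 6661 lay 0.14 and 0.17 above the mean of the 6 libraries and 6652 lay at -0.09, with the wild type at -0.06, -0.09 and -0.06. Of the complex I subunits 83.3% were in the shortest group, of complexes II to V 77.5% and of the mitochondrial ribosomal proteins 53.9%. Cytosolic ribosomal proteins, a list added after the data were seen with no tie to mitochondria, had 84.7% of members in that group, and 72 of 73 lay above 0 with a median of 0.18. The part of transcript length in the medians was not tested.

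**Figure D4:**
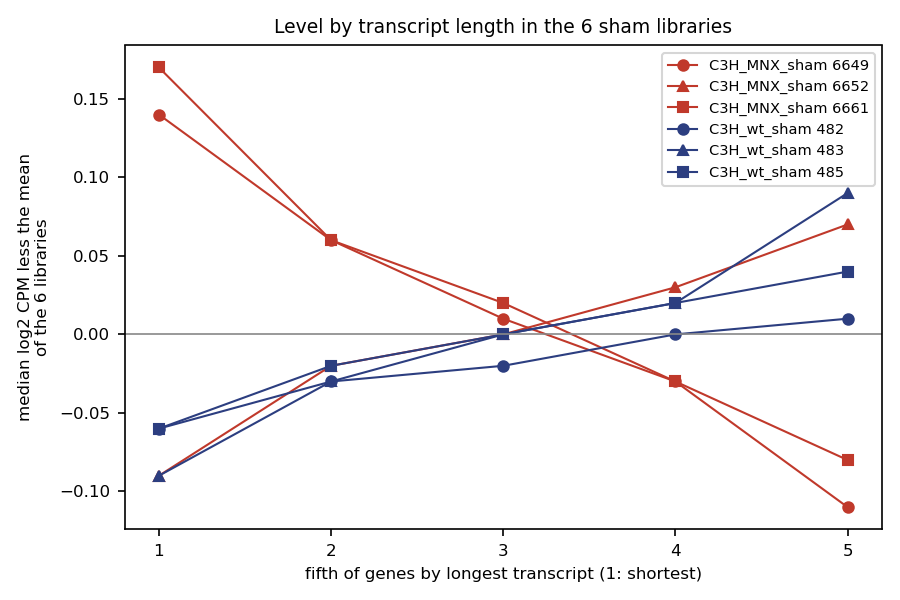
Median over the genes of each of 5 transcript length groups of log2 CPM less the mean of the 6 libraries, for each exchange (red) and wild-type (blue) library. Exchange libraries 6649 and 6661 fall from 0.14 and 0.17 in the shortest group to -0.11 and -0.08 in the longest, and 6652 runs with the wild type.

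Genes of fatty acid uptake and oxidation, the main fuel pathway of the adult heart, had 0 of 35 members past the threshold or at an unadjusted p below 0.05 in edgeR. The median was 0.17, with 28 of 35 above 0 (48.7% of all genes). The groups did not overlap for 8 of them, all higher (6.9% of all genes), among them Eci1, an isomerase of unsaturated chains, at 130, 111 and 139 CPM against 80.4, 98.7 and 101 CPM (0.42, SE 0.241). The tricarboxylic acid cycle and related oxidation list had 22 of 27 above 0 (median 0.13), antioxidant and NRF2 target genes 27 of 33 (median 0.17), and glycolysis and glucose use 23 of 32 (median 0.08), with 0 members called in each. Angptl4, an inhibitor of lipoprotein lipase, had the lowest value at -1.44 (SE 0.746), from 10.7 CPM in wild-type library 482 and 1.14 to 1.98 CPM in the other 5. Ucp3, a mitochondrial uncoupling protein, had 66.9 CPM in 482 and 15.9 to 22.6 CPM in the other 5. In the ACF pair the signs turned over. Below 0 lay 32 of 35 fatty acid genes (median -0.22), 27 of 27 of the tricarboxylic acid list (-0.25) and 28 of 32 of the glycolysis list (-0.22). In the same order the medians were 0.17, 0.21 and 0.17 in set B and -0.20, -0.24 and -0.25 in the C57 titles.

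Stress and structural lists had small medians. The mitochondrial and integrated stress response had a median of 0.09 over 20 members tested of 24, with 16 above 0 (48.7% of all genes). Its list mean lay higher in each exchange library, as given above. Atf4 had 0.12 (SE 0.125), Ddit3 0.27 (SE 0.251) and the one-carbon enzyme gene Mthfd2 1.16 (SE 0.45), at levels under 1 CPM. Sarcomere and Z-disc genes had a median of 0.01 over 25 members, and calcium handling and ion channel genes -0.02 over 34. Both had 0 members past the threshold. Myh6, the adult myosin heavy chain, had -0.11 (SE 0.193), Myh7, its fetal counterpart, 0.05 (SE 0.497) and Acta1, skeletal actin, 0.02 (SE 0.397). The natriuretic peptide genes Nppa and Nppb had 0.46 (SE 0.427) and 0.16 (SE 0.217). Nnt, the mitochondrial transhydrogenase that is defective in C57BL/6J, had 0.08 (SE 0.194), and Kcnj14, a potassium channel gene that differs between the strains, 0.14 (SE 0.158). Between C3H_wt_sham and C57_wt_sham the estimate for Nnt was 0.09 (SE 0.194, edgeR adjusted p = 0.882), so its level did not mark the strains there.

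Interferon response genes were set apart by 1 wild-type library. Of 29 members tested, 2 lay above 0 (48.7% of all genes) and 27 below, the median was -0.76, and 10 had an unadjusted p below 0.05, all lower (1.63% of all genes). The groups overlapped for every member. The list mean was 3.78 in library 482, 2.00 in 483 and 2.54 in 485, against 2.36, 2.15 and 2.27 in the exchange. Gbp3, an interferon-induced GTPase, had 41.4 CPM in 482 and 2.96 to 7.5 CPM in the other 5 libraries (-1.94, SE 0.689). Without 482 the list median was -0.06, with 13 of 29 above 0 and 0 at an unadjusted p below 0.05.

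Clock genes are led by the activator Arntl and its partner Clock, which drive the Per, Cry and PAR-factor genes that repress or follow them. Of 18 members tested, 0 passed, and the groups did not overlap for 9, of which 7 were lower (4.92% of all genes) and 2 higher (6.9%). Arntl was at 4.28, 9.28 and 9.42 CPM in the exchange and 1.81, 3.87 and 2.67 CPM in the wild type (1.43, SE 0.526). Per3 at -0.73 (SE 0.336) and Cry2 at -0.44 (SE 0.171) lay the other way. So did the PAR-factor genes Tef at -0.56 (SE 0.237) and Dbp at -0.72 (SE 0.321). In Dbp library 6649, at 39.7 CPM, lay within the wild-type range of 28.9 to 51.1 CPM. The ACF pair had a median of -0.02 and set B of 0.34, and the time of day was not tested.

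Markers of other cell types differed between libraries within the groups and, for the mean of the blood list in the sham pair, between the groups. Endothelial markers lay below 0 for 13 of 13, with a median of -0.34 and 0 at an unadjusted p below 0.05 in edgeR, and summed to 2570 to 2800 CPM in the exchange and 2430 to 3330 CPM in the wild type. Their mean log2 CPM was 6.98 and 6.71 in wild-type libraries 482 and 485, above the exchange (6.10 to 6.38), and 5.93 in 483, below it. Erythrocyte markers had a median of -1.77 over 4 tested of 7 matched, and summed to 10.8 to 77.9 CPM in the exchange and 72.2 to 210 CPM in the wild type. Hba-a2, alpha globin, was at 68.9, 7.12 and 38.7 CPM against 183, 61.0 and 120 CPM. The mean log2 CPM of the 4 was 0.41 to 2.71 in the exchange and 2.86 to 4.11 in the wild type. This mean thus separated the sham groups as that of the immediate early genes did, whereas the summed CPM and Hba-a2 overlapped. The erythrocyte median was 0.84 in the ACF pair and 0.60 in set B, with 4 of 4 above 0 in each. In the C57 titles it was 0.94 with 3 of 4 above 0. Macrophage markers had a median of 0.30 and 2 of 12 at an unadjusted p below 0.05, Lyz2 (0.76, SE 0.309) and C1qb (0.70, SE 0.319), and summed to 77.0 to 118 CPM against 69.9 to 82.1 CPM. Smooth muscle and pericyte markers had a median of -0.22 over 9 and fibroblast markers of -0.08 over 12. Of 12 lymphocyte markers matched, 0 passed the filter on low counts. In bulk samples, fewer cells of a type and less RNA per cell cannot be told apart, and the part of these cells in the gene lists above was not tested.

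**Figure D5:**
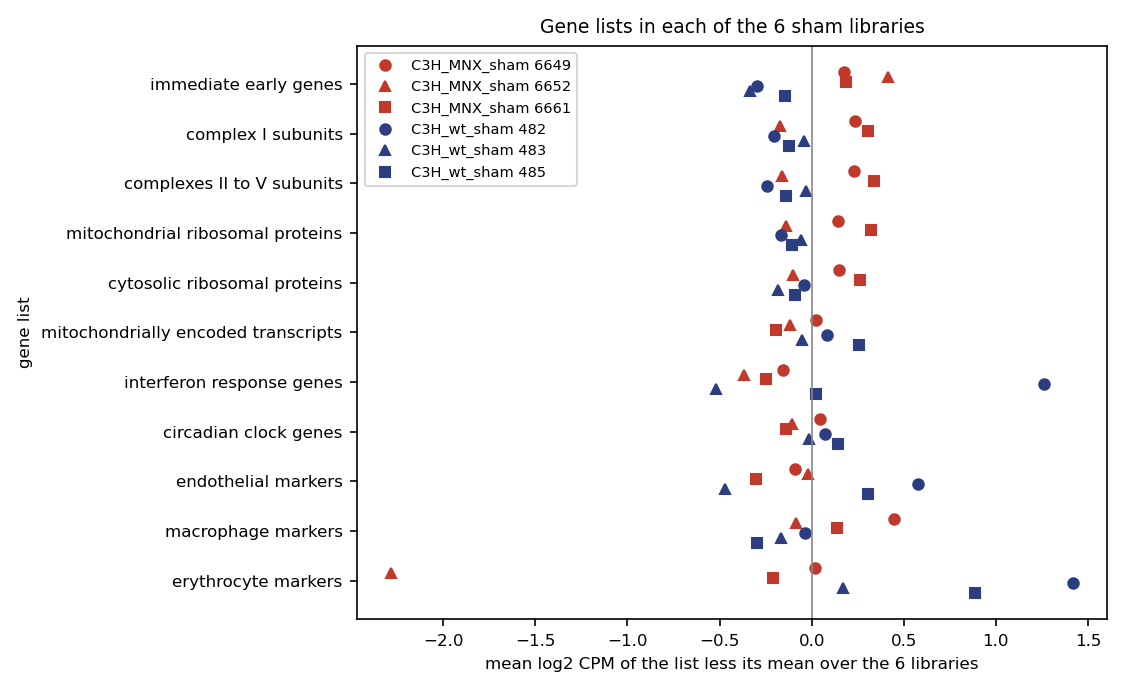
Mean log2 CPM of each gene list in each of the 6 libraries, less the mean over them, with exchange libraries in red and wild-type libraries in blue. The immediate early genes (3.57 to 3.81 against 3.06 to 3.25) and the erythrocyte markers (0.41 to 2.71 against 2.86 to 4.11) separate the groups, the complex I, complexes II to V and both ribosomal protein lists separate 6649 and 6661 from the rest, and the interferon genes separate 482.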

How the data were processed

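RNA from isolated mouse cardiomyocytes was sequenced in 48 libraries, of which 6 are compared here. The deposited table holds expected counts per gene symbol that the authors did not normalize. Per the submitters' processing notes CASAVA 1.8.2, Bowtie, RSEM 1.2.0 and build mm9 were used, whereas the labels' protocols name a proprietary mapper. The sources do not settle which one produced the table. The table has 30743 rows, 0 columns of other samples, 0 rows naming no gene and 13.9% of values that are not whole.

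Expected counts were rounded and fitted in R 4.3.3 with edgeR 4.0.16 (limma 3.58.1): TMM, edgeR's filter on low counts, the quasi-likelihood test, Benjamini-Hochberg adjustment at 0.05, and 1 model of the 12 sham-titled libraries as 4 group means with 8 residual degrees of freedom. The ACF pair was fitted in 1 model of the 24 libraries with sham and ACF titles, and set B in 1 model of its own 24. The SE and p of the ACF pair thus draw on the spread of the sham libraries too. The SE is the log2 fold change over the square root of F. CPM used TMM over 48 libraries, and log2 CPM a prior count of 2. The scripts were tested on simulated data. Replicates differed beyond sampling noise (lowest chi-square per degree of freedom 7.79).

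The members, gene lists and tests were chosen with earlier results of these data known. Named were called genes without overlap whose average log2 CPM reached 2, then, as under 10 passed, 10 per direction by unadjusted p under the same limits without predicted or clone symbols, called list members, and a fixed set of mitochondrial and cardiac genes. The result for 1 gene that this rule selects is not reported here. Other settings were DESeq2 1.42.0, its size factors, no filter, other libraries in the fit, the title code, the abundant features left out and each library left out. Depth sets the precision of rare transcripts, and intervals cover counting error only.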

Additional observations from a re-analysis of the deposited data

Results flagged for a closer look

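Zfp709 was flagged because its exchange difference was not the same in different pairs of groups. Between the C3H and the C57 sham pairs the difference was 2.07 on the log2 scale (edgeR adjusted p = 0.0182), with all 3 C3H exchange libraries above all 3 C3H wild types. Between the C3H sham pair and the pair of titles without a surgery word it was 1.71 (edgeR adjusted p = 1.11e-06). Zdhhc2 was flagged on the second contrast, with a difference of 1.51 (edgeR adjusted p = 0.0192).

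Library 18 of the C3Hn-C57mt group stood apart from the other 5 in Zfp709, at 12.1 CPM. It was the 1 outlying library in 16 checks of groups, and chance gives about 1 in 20.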

How the results depend on the processing

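No paired analysis was possible because the sham groups compared share no replicate numbers.

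Against 3 calls in the C3H sham pair, DESeq2 made 13 (8 higher, 5 lower) and the title code as a factor left 0; leaving out 1 library gave 1 to 3, with 1 (Zfp709) without 6649. Size factors of DESeq2, no filter, the 6 libraries alone, the 24 libraries with or without 489 and library sizes without abundant features gave 2 to 4. DESeq2 made 6 calls in set B against 1, 14 in the ACF pair against 2, 1 in the sham to ACF difference against 0, and 5 in the difference from set B against 3. Leaving out 1 library gave 1 to 3 calls in the ACF pair, 0 to 1 in the C3H to C57 difference and 1 to 3 in the difference from set B. The cause was not tested.

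Reversed signs were found only in genes that had not passed. With the title code, Cytb had 0.07, Cox2 0.04, Atpase6 0.06, Nnt -0.77, Nppb -0.23, Myh7 -0.90, Acta1 -0.76 and Kcnj14 -0.08. In the mean of the sham and ACF differences, chosen after seeing the data, Cdkn1a had -0.06, Nnt -0.17, Nppa -0.02, Nppb -0.20, Myh7 -0.40 and Acta1 -0.48. Leaving out 1 library gave -0.06 to 0.24 for Nnt, -0.06 to 0.67 for Nppa, -0.05 to 0.11 for Myh7 and -0.17 to 0.15 for Acta1. Of the other alternatives for named genes, 438 kept direction and side, 12 lost a call and 9 gained one. With 3 libraries a group, changes under 2-fold were often beyond reach in the simulated counts. In the data Atf3, at 2.00 on the log2 scale, did not pass either.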
